A study of Homo sapiens with 3 samples.

Results

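The regions described here are the 1492 entries of the 112 protein-coding genes that each had 10 or more entries under 1 gene identifier in the glucose block of the deposited table. That block sets the control beside the glucose-deficient library and holds 14338 entries, of which 13647 name a gene, under 5932 identifiers and 4513 protein-coding ones. An entry, called a row here, is a stretch of transcript with 1 value per library, and it carries no coordinates. The members were chosen by the number of rows alone, but how rows came to be listed is not given. Across 4509 listed protein-coding genes the number of rows rose with the summed control level (Spearman's rho 0.81). That sum grows with every row it is taken over, and rho with the mean control level per row was 0.32. The choice may therefore not be independent of the control library. After entries that overlapping genes share were merged, 1456 distinct regions of 12390 remained. The glutamine block, which sets the same control beside the glutamine-deficient library, held all 112 genes with the same number of rows and the same control values.

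The 3 libraries came from 95D, an established human lung cancer line recorded as wild type in every group. The control was grown for 48 h in control conditions, and the other cultures spent the 48 h in DMEM without glucose or without glutamine, with 10% dialyzed serum. Per the labels, lysate RNA was captured on biotinylated DAMER, a long non-coding RNA made in vitro, although the sample titles speak of RNA sequencing only, so whether the control is a pulldown is not settled. Each group had 1 library, so no difference here has a replicate check, no test was made, and every interval is an exact 95% interval for counting error alone. Of the epithelial markers looked for, 1 of 5 was listed (KRT8, 6.48 RPM), of the mesenchymal ones 1 of 3 (VIM, 77.7 RPM over 4 rows), and none of the leukocyte, fibroblast, endothelial or erythroid ones. The table is a selection of regions, so a gene that is not listed is not shown to be absent.

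Values were deposited in RPM, a unit that divides reads by the library's total, and rose in steps of 0.5 fragment, a fragment being a sequenced read pair. Library totals were inferred by taking the lowest value of each library as 0.5 fragment. On that basis the control library totalled 3781862 fragments, that of glucose deficiency 18775817 and that of glutamine deficiency 18301611. A count of 0 allows up to 3 fragments, which is 0.793, 0.160 and 0.164 RPM in that order. ATF4 and its pseudogenes, the ATF4 family here, took 99.9% of the fragments of each deprived library and 0.0253% of those of the control, which left 12936 and 14450 fragments for everything else.

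Genes that fill many rows include many with large messages. Among them are E3 ubiquitin ligases, which attach ubiquitin to proteins and so mark many of them for the proteasome, and kinases of the phosphatidylinositol 3-kinase-related family, which act in the response to DNA damage. Others encode dyneins and spectrins of the cytoskeleton, chromatin remodellers and histone methyltransferases, cohesin and condensin subunits, nuclear pore proteins and translation factors. In an RNA library a region's fragments depend on the abundance of the RNA, on the region's length and on how well that stretch was captured and read, so rows of 1 gene need not be alike.

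Only 9 genes had 20 or more rows, 22 had 15 or more, and 65 had 10 to 12, with a median of 12. UBR4 had 38, PRKDC 37, HUWE1 27, DYNC1H1 24 and PRRC2C 23, followed by CKAP5, CNOT1 and MDN1 with 22 each and PRRC2B with 21. At the edge of the choice, the 25 genes with 10 rows had summed control levels of 69.9 to 592 RPM (median 102), and the 40 genes with 9 rows, just outside it, had 53.4 to 662 RPM (median 112). Their median ratios of highest to lowest row were 3.97 and 4.88.

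The member genes had longer gene models than the other listed protein-coding genes. In GENCODE 29 the longest transcript had a median of 7.53 kb over the 112 members and 3.84 kb over 4397 others, and it held a median of 26.5 and 9 exons. The gene span had a median of 91.9 kb in members and 35.7 kb in the others. Length and number of rows were loosely related: across 4509 listed genes Spearman's rho of the number of rows was 0.22 with transcript length, 0.27 with exon number and 0.32 with the mean control RPM per row. These are descriptions across genes of 1 library, whose rows share depth and selection. The 2 cytoskeletal linkers MACF1 and DST, with longest transcripts of 24.8 and 22.4 kb, had 11 and 12 rows, which is 0.443 and 0.535 rows per kb. FHIT, a gene of 1502 kb that spans a common fragile site, had 10 rows for a longest transcript of 3.06 kb. At the other end stood FMC1-LUC7L2, a readthrough gene, with 11 rows for 1.66 kb, 6 of them shared with another gene. The members lay on 21 chromosomes, with 17 on chromosome 1, 9 on chromosome 3 and 8 each on chromosomes 7, 10, 16, 17 and X.

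**Figure D1:**
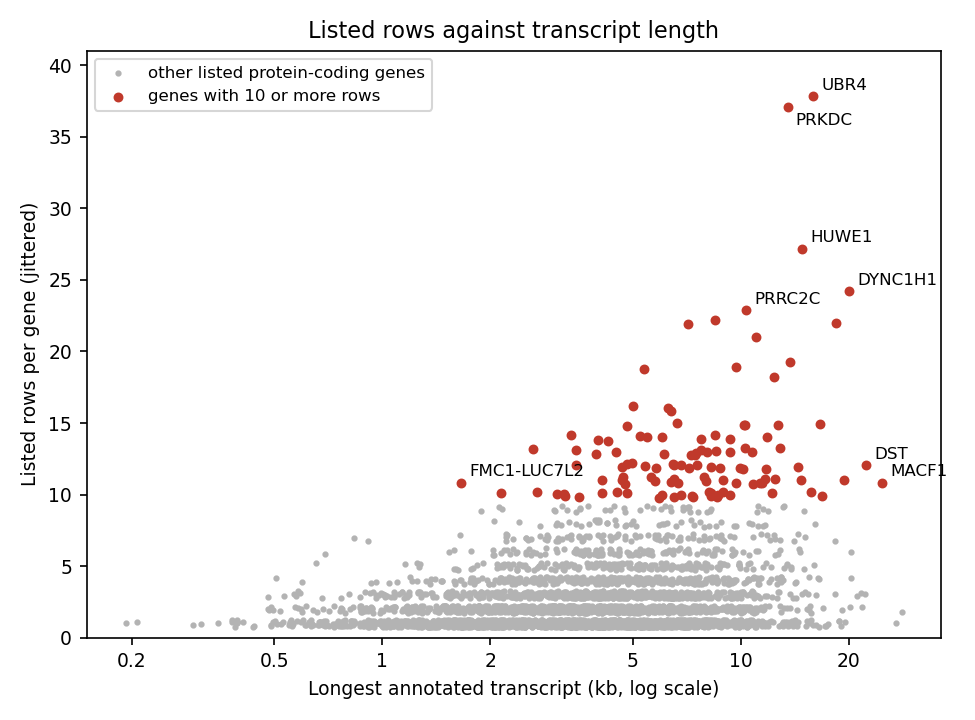
Number of listed rows per protein-coding gene (vertical axis, jittered) against the length of its longest transcript in GENCODE 29 (kb, log scale). Red points are the 112 genes with 10 or more rows and grey points the 4397 others. The members sit to the right of most other genes (medians 7.53 and 3.84 kb), but MACF1 and DST, at 24.8 and 22.4 kb, have 11 and 12 rows.

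Some rows were shared with another gene. In the glucose block 134 member rows, and in the glutamine block 133, were also listed under a second identifier. Every region of 5 identifiers stood under another gene too. Among these were SMC4, whose 14 rows repeat under a readthrough identifier, and CHD4, whose 11 rows all fall within an unnamed identifier of 14. SRCAP, a chromatin remodeller, shared 11 of its 12 rows with another unnamed identifier, and KMT2A shared 8 of 15. The strand used in counting is not given, so reads of such overlapping genes cannot be told apart. 107 genes had at least 1 region of their own.

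Across all members, control values ran from 3.04 RPM (a row of the cohesin subunit STAG2, 11 fragments) to 221 RPM (a row of SRRM2), with quartiles of 6.48, 8.99 and 14.7 RPM. The median of all listed rows that name a gene outside ATF4 and its pseudogenes was 8.06 RPM. Of the 1456 regions, 820 lay under 10 RPM, 202 at 20 RPM or more and 6 at 100 RPM or more. Most members' rows were therefore shallow: 1104 regions held at least 20 and fewer than 80 control fragments. Together the regions took 1.89% of the control fragments.

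Within a gene the rows were uneven. The highest row exceeded the lowest by a median of 5.29 times, from 2.39 in MACF1 to 46.7 in PRRC2C, with quartiles of 3.62 and 7.56. It exceeded the gene's median row by a median of 2.61 times, and in 23 genes by 4 times or more. Counting error is small beside this: if every row of a gene had the same true level, the variance of its fragments divided by their mean would be near 1, whereas it was above 1 in 112 of 112 genes, with a median of 11.9 and a range of 1.46 (TRRAP) to 299 (PRRC2C). The lower end of the highest row's counting interval lay above the median row in 111 genes and above the upper end of the lowest row's interval in 112. Since the highest and lowest rows were picked for being so, these counts describe the spread and test nothing. The lowest row of a gene had quartiles of 4.36, 4.83 and 5.69 RPM, and the highest row 18.4, 25.3 and 37.0 RPM. The lowest rows thus differed less between genes than the highest. Row lengths and the rule for listing rows are not given, so how much of the spread comes from either was not tested.

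The unevenness seldom rested on 1 row. The highest row exceeded the second by a median of 1.29 times, and by 2 times or more in 15 genes, the most in KMT2D (3.75). It held a median of 18.1% of its gene's control fragments, from 6.55% in PRKDC to 47.3% in ANKRD11. Spearman's rho between the number of rows and the ratio of highest to lowest was 0.29 over the 112 genes, and a ratio of extremes tends to grow with the number of rows it is taken over. Between that ratio and the gene's median control row it was 0.35.

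**Figure D2:**
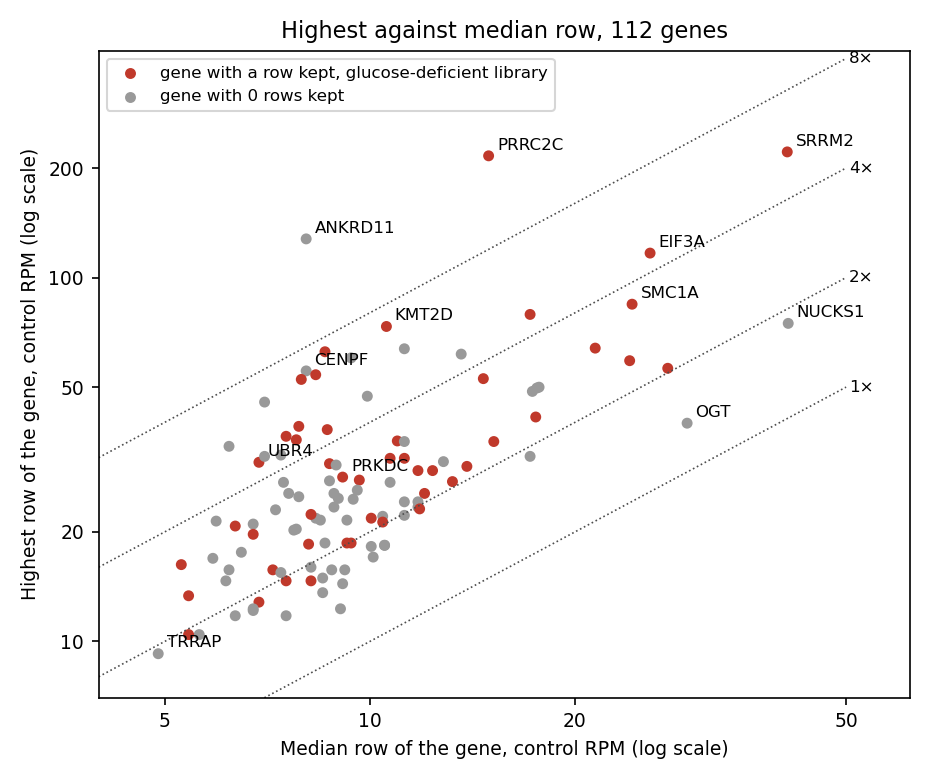
Highest control row of each of the 112 genes against its median row (both in RPM, log scales), with dotted lines at ratios of 1, 2, 4 and 8. Red points are the 47 genes with a fragment in the glucose-deficient library and grey points the 65 without. PRRC2C and ANKRD11 lie above the line of 8, while NUCKS1 and OGT have high medians (41.1 and 29.2 RPM) and lie under the line of 2.

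UBR4 encodes a giant E3 ligase of the N-degron pathway, which recognises proteins by their first residue, and lies on chromosome 1 from 19074506 to 19210276 on the minus strand (GRCh38). Its 38 control rows ran from 3.44 to 31.1 RPM with a median of 6.87 and quartiles of 5.85 and 8.16. The 3 highest were 12.8, 17.3 and 31.1 RPM (48, 65 and 117 fragments), and the highest had a counting interval of 25.6 to 37.1 RPM. The highest row was 1.79 times the second and 4.52 times the median. In the glucose-deficient library UBR4 kept 3 fragments, in rows that were among its lower ones: 2 in a row of 6.21 RPM in the control and 1 in 1 of 2 rows of 5.16 RPM. The row of 31.1 RPM held 0, as did every UBR4 row in the glutamine-deficient library.

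PRKDC, the catalytic subunit of DNA-dependent protein kinase, which acts in the joining of broken DNA ends, lies on chromosome 8 from 47773108 to 47960183 on the minus strand. Its 37 rows ran from 4.63 to 28.3 RPM around a median of 9.12, with quartiles of 6.74 and 14.9. Here the high end was a group and not a single row: the top 4 were 24.2, 24.99, 26.6 and 28.3 RPM, and the highest held only 6.55% of the gene's 1626.5 fragments. In the glucose-deficient library it kept 1 fragment in its highest row and 1 in a row of 12.6 RPM, and in the glutamine-deficient library 0. Against 435 RPM summed in the control, this is a control level 4038-fold higher (interval 1116 to 33368) than in glucose deficiency. Under glutamine deficiency the level was at least 2624-fold lower than in the control, a bound set at 3 fragments over the gene. Both folds are shares of whole libraries of which ATF4 and its pseudogenes took nearly everything. With those left out of the totals, the PRKDC control level was 2.78-fold higher than in glucose deficiency, with an interval of 0.769 to 23.0 that includes no difference. In these bulk libraries fewer cells and less RNA per cell cannot be told apart.

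**Figure D3:**
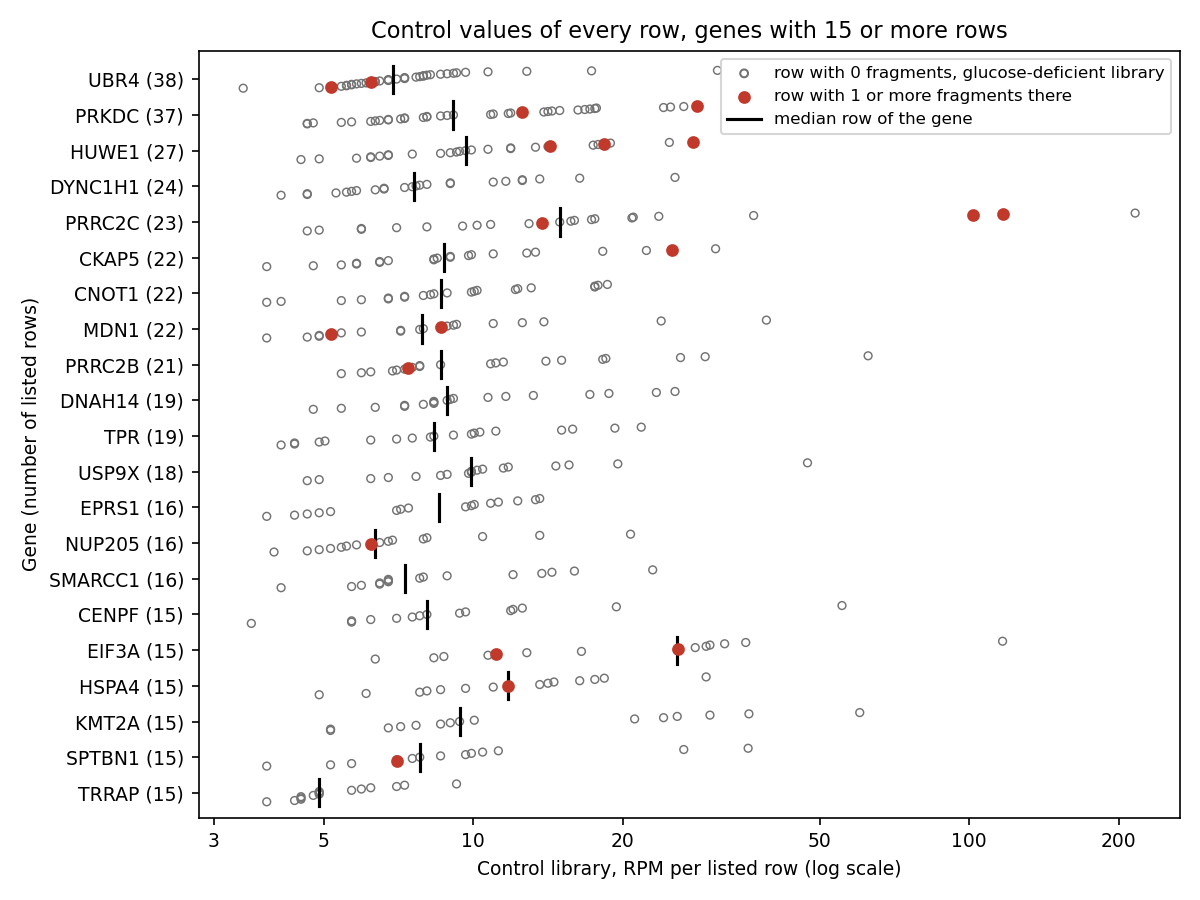
Control RPM (log scale) of every row of 21 of the 22 genes with 15 or more rows, 1 gene per line, with the number of rows in brackets. Open circles are rows with 0 fragments in the glucose-deficient library, red points rows with 1 or more, and black bars the gene's median row. The rows of TRRAP keep within 3.83 and 9.25 RPM, whereas those of PRRC2C reach from 4.63 to 216 RPM, and kept rows occur at low and high control levels.

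Other members that work on ubiquitin include HUWE1, BIRC6 and MYCBP2, which are E3 enzymes, and USP9X, a deubiquitinase. HUWE1, on chromosome X, had 27 rows from 4.50 to 27.8 RPM with a median of 9.65. It kept 1 fragment in each of 3 rows of 14.3, 18.4 and 27.8 RPM, all above its median and including its highest. USP9X had 18 rows from 4.63 to 47.2 RPM, of which the top one stood 2.41 times above the second, and kept 0 fragments. Over the 6 genes of this group, UBR4 included, 8 of 117 rows in 3 genes kept fragments. Among all listed rows that name a gene, 629 of 13647 did, or 4.61%, and the counts of the groups below stand beside that share. In each group with members, the interval of fragments kept per 1000 control fragments contained the 1.26 of all members. The groups are thus not told apart by their kept rows.

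The group of PIKK-family kinases and DNA damage repair had 3 members with 63 rows, of which 2, both of PRKDC, kept fragments. TRRAP, a PIKK-like scaffold of histone acetyltransferase complexes without kinase activity, was the most even gene by fragments: its 15 rows lay between 3.83 and 9.25 RPM, and their variance was 1.46 times their mean. CLSPN, the checkpoint mediator claspin, had 11 rows from 4.89 to 17.6 RPM with a median of 6.48. TRRAP and CLSPN held 0 fragments in both deprived libraries.

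Over the 8 members of the cytoskeleton the median ratio of highest to lowest row was 3.15, beside 5.29 over all members. Their median control row was also lower, 7.54 RPM beside 8.99 RPM over all member rows. DYNC1H1, the heavy chain of cytoplasmic dynein, had 24 rows from 4.10 to 25.5 RPM with a median of 7.60 and kept 0. MACF1 ran from 4.36 to 10.4 RPM over 11 rows, DST from 4.63 to 11.8 RPM over 12, and CLTC, the clathrin heavy chain, from 5.69 to 14.7 RPM over 10. SPTBN1, a beta-spectrin, spread wider, with 15 rows from 3.83 to 35.8 RPM. Of 109 rows 7 kept fragments, in 6 genes, among them 1 of 2 rows of 4.89 RPM in MACF1 with 2 fragments and 1 row each in SPTBN1, CLTC and the myosin gene MYH10.

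Chromatin and transcription regulators were the largest group, with 14 members and 170 rows. KMT2D, a histone H3 lysine 4 methyltransferase, had 11 rows from 4.89 to 73.4 RPM, and its top row exceeded the next, 19.6 RPM, by 3.75 times. That top row kept 4 fragments in the glucose-deficient library, the most of any member row, and a row of 18.2 RPM kept 1. KMT2A, a related methyltransferase, ran from 5.16 to 60.2 RPM over 15 rows and kept 0. Rows of EP400 (4.50 to 11.8 RPM), CHD2 (4.76 to 20.4 RPM) and BAZ1B (4.36 to 35.4 RPM), all subunits or enzymes of chromatin remodelling, also held 0. Over the group 8 rows in 5 genes kept fragments.

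The 7 members of mitosis and replication had a median ratio of highest to lowest of 8.03. CENPF, a kinetochore-associated protein, had 15 rows of which 14 lay between 3.57 and 19.4 RPM, and the last at 55.4 RPM. CKAP5, a microtubule polymerase of the spindle, had 22 rows from 3.83 to 30.8 RPM and kept 1 fragment in a row of 25.1 RPM. SMC1A, a cohesin subunit, had 12 rows from 8.99 to 84.5 RPM with a median of 24.3 and kept 2 fragments in its second row of 53.8 RPM. SMC4, a condensin subunit, was even, from 5.69 to 18.4 RPM over 14 rows, and kept 0. In all 4 of 93 rows, in 4 genes, kept fragments.

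Splicing and RNA processing held the gene that kept the most. SRRM2, a large serine- and arginine-rich protein of the spliceosome and of nuclear speckles, lies on chromosome 16 from 2752329 to 2772538 on the plus strand. Its 10 control rows were 13.6, 16.8, 26.3, 27.4, 34.0, 48.0, 48.4, 61.9, 94.7 and 221 RPM. In the glucose-deficient library the rows of 221, 94.7, 48.4, 34.0 and 27.4 RPM kept 3, 2, 1, 1 and 1 fragments, and the other 5 kept 0. That is 8 fragments for 2235.5 in the control, or 3.58 per 1000 (interval 1.54 to 7.05), and 0 in the glutamine-deficient library. Kept rows lay at the top and in the middle of the gene, and its 3 lowest rows held none. PRPF8, the core protein of the spliceosome's catalytic centre, kept 2 fragments in a row of 11.5 RPM among 13 rows of 5.16 to 27.5 RPM. ZC3H13, a member of the complex that methylates adenosine in RNA, kept 1 in a row of 14.1 RPM, and SF3B3, a subunit of splicing factor 3b, kept 0. CNOT1, the scaffold of the CCR4-NOT deadenylase, had 22 rows from 3.83 to 18.6 RPM and is taken up with the glutamine-deficient library.

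Among nuclear pore genes, TPR (19 rows, 4.10 to 21.8 RPM), NUP153 (14 rows, 6.08 to 26.05 RPM) and NUP155 (10 rows, 4.63 to 12.3 RPM) kept 0. NUP205 kept 1 fragment, in a row of 6.21 RPM, near its median of 6.35. Of the translation genes, EIF3A, the largest subunit of initiation factor 3, spread widest. It had 15 rows, 14 of them from 6.35 to 35.4 RPM and 1 of 117 RPM (interval 106 to 128), which is 3.29 times the second. That highest row kept 0 fragments, while rows of 25.9 and 11.1 RPM kept 2 and 1. MDN1, an ATPase of ribosome assembly, kept 1 fragment in 1 of 2 rows of 8.59 RPM and 1 in 1 of 2 rows of 5.16 RPM out of 22, and 0 in its top rows of 39.0 and 23.9 RPM. EPRS1, a tRNA synthetase (16 rows, 3.83 to 13.6 RPM), and EIF5B (11 rows, 6.08 to 24.2 RPM) kept 0. Only ROBO1, an axon guidance receptor, came from the list of membrane and matrix genes, with 1 fragment in a row of 12.8 RPM. No member came from the lists of metabolism or of trafficking, of which 23 and 20 genes were listed with fewer rows. The lists do not cover all members: 57 of 112, with 706 rows, were in none, and CLTC was placed with the cytoskeleton. A list without members therefore does not show that no member has that role.

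The widest gene, and the one with the highest summed control level, belonged to none of the lists. PRRC2C, an RNA-binding proline-rich protein, lies on chromosome 1 from 171485551 to 171593511 on the plus strand. Of its 23 rows 20 lay between 4.63 and 36.8 RPM and the other 3 at 102, 117 and 216 RPM. In the glucose-deficient library the row of 102 RPM kept 3 fragments, that of 117 RPM 1 and a row of 13.7 RPM 1, while the row of 216 RPM (816.5 control fragments) held 0, the deepest member row to do so. Its relative PRRC2B had 21 rows from 5.42 to 62.5 RPM and kept 1 fragment in a row of 7.40 RPM. ANKRD11, a chromatin-associated ankyrin repeat protein, had rows of 128 and 49.3 RPM above 11 others of 4.36 to 19.8 RPM, and kept 0 in all 13. WNK1, a kinase of ion transport, kept 2 fragments in a row of 42.3 RPM and 1 in its highest of 52.8 RPM. HNRNPC, which binds pre-mRNA, kept 3 in a row of 11.4 RPM, below its median of 15.2, and none in its top row of 35.4 RPM.

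In other genes the median row was high. NUCKS1, a nuclear phosphoprotein, had 11 rows of which 8 lay between 28.95 and 74.8 RPM and the other 3 at 4.36, 8.86 and 14.4 RPM, so that its wide ratio of 17.2 came from low rows and its highest was only 1.82 times its median. OGT, the enzyme that adds N-acetylglucosamine to proteins, had 13 rows from 8.06 to 39.8 RPM with a median of 29.2. NUCKS1 with 1530.5 and OGT with 1251 control fragments kept 0 in both deprived libraries. Per kb of longest transcript, the summed control level was 68.7 RPM in PRRC2C, 63.3 in SRRM2, 62.5 in NUCKS1, 59.9 in EIF3A, 32.2 in PRKDC and 19.1 in UBR4, beside a median of 19.6 over the members. Neither the lengths of rows nor their placement in exons or introns is given, so how much of a transcript they cover is unknown. This scale, like the number of rows per kb, is therefore a rough one. DNAH14 (19 rows, 4.76 to 25.5 RPM), an axonemal dynein, and JMJD1C (10 rows, 6.08 to 15.7 RPM), of a histone demethylase family, kept 0.

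All member rows were at least 2-fold lower than in the control on log2(RPM + 1), 1492 of 1492 in each deprived library, but so were 99.9% of all listed rows that name a gene in glucose deficiency and, rounded, 100% (13637 of 13642) in glutamine deficiency, and 0.0586% and 0.0293% were at least 2-fold higher. The median log2 difference of the member rows was -3.28 in both libraries and that of all such rows outside ATF4 and its pseudogenes -3.14 in both. Every listed row of the 11 gene lists was lower in both libraries, with list medians of -3.44 (splicing and RNA processing) to -2.89 (membrane and matrix). These differences restate the control level of a row, because a row at 0 fragments has 1 fixed deposited value. In fragments, a row at 0 was at least 18.2-fold to 1351-fold lower than in the control in glucose deficiency (median 54.6), depending only on its control depth.

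The direction also rests on the library total. With totals that leave out the ATF4 family and with the deposited offset of 0.5 fragment per row taken off, 3 fragments are worth 232 RPM in glucose deficiency and 208 RPM in glutamine deficiency. On that scale no member row reached the floor of the glucose-deficient library in the control, and 2 exceeded that of the glutamine-deficient one, so single rows at 0 give almost no direction. Pooled, the member regions held 1.89% of the fragments in the control, 0.696% in glucose deficiency and 0.0138% in glutamine deficiency. The control level was 2.71-fold higher than in glucose deficiency (interval 2.21 to 3.38), where it was 2.51-fold higher (2.37 to 2.68) for the other listed regions. It was 136-fold higher than in glutamine deficiency (37.8 to 1127), where it was 18.5-fold higher (15.8 to 21.7) for the other listed regions. The latter here include the mitochondrial genome, and those intervals did not overlap. Outside the mitochondrial genome the other regions kept 0.0881 fragments per 1000 control fragments in glutamine deficiency (0.0671 to 0.114). The members kept 0.0280 (0.00339 to 0.101), so the intervals of these rates overlapped. Gene by gene, in glucose deficiency, of the 47 genes that kept a fragment, 34 were lower and 13 were not, and no interval was clear of 1. For 2 of the 65 genes at 0, NUCKS1 and OGT, the lower end of the interval was above 1, at 1.42-fold and 1.16-fold. Every member row held at least 11 control fragments, and the rule by which rows were listed is not given. How much of these folds comes from a listing by control level was not tested, so they do not settle the direction.

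In the glucose-deficient library 71 of 1492 rows kept at least 1 fragment, 4.76% (interval 3.74% to 5.96%), where 4.61% of all listed rows that name a gene did. The share of members thus lay near the background. As distinct regions these were 70 of 1456, with 90 fragments for 71395 in the control, or 1.26 per 1000 (interval 1.01 to 1.55). The other listed regions kept 1.36 per 1000 (1.28 to 1.45), and those outside the mitochondrial genome 1.42 (1.34 to 1.52), so the intervals overlapped. Of the 71 rows, 55 held 1 fragment, 12 held 2, 3 held 3 and 1 held 4. They belonged to 47 genes: 30 genes with 1 kept row, 12 with 2, 4 with 3, among them HUWE1 and PRRC2C, and SRRM2 with 5.

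Kept rows tended to have more control fragments. Their control median was 14.1 RPM and that of the rows at 0 was 8.86 RPM, with ranges of 4.10 to 221 and 3.04 to 216 RPM that overlapped almost fully. In 49 of 71 cases the kept row lay at or above its gene's median row, and in 17 it was the highest, as in HUWE1, PRKDC, SRRM2 and KMT2D. In 22 it lay below the median, as in UBR4 and HNRNPC. By definition a gene has at least as many rows at or above its median as below it, and each of the 112 genes has a highest row among the 1492. The highest row of SRCAP is counted again under the identifier that shares it. By control depth, 3.01% of member regions with fewer than 20 control fragments kept a fragment, 2.12% from 20 to under 40, 6.03% from 40 to under 80, 10.0% from 80 to under 160 and 26.1% (12 of 46, interval 14.3% to 41.1%) at 160 or more. For the other regions the shares were 1.85%, 2.54%, 4.79%, 10.98% and 28.0%, and each lay inside the interval of the members. The difference between the sets was not tested. Within a gene the order need not hold, since at the pooled rate a region of median depth would hold 0.0422 fragments and 793 control fragments would be needed for 1.

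**Figure D4:**
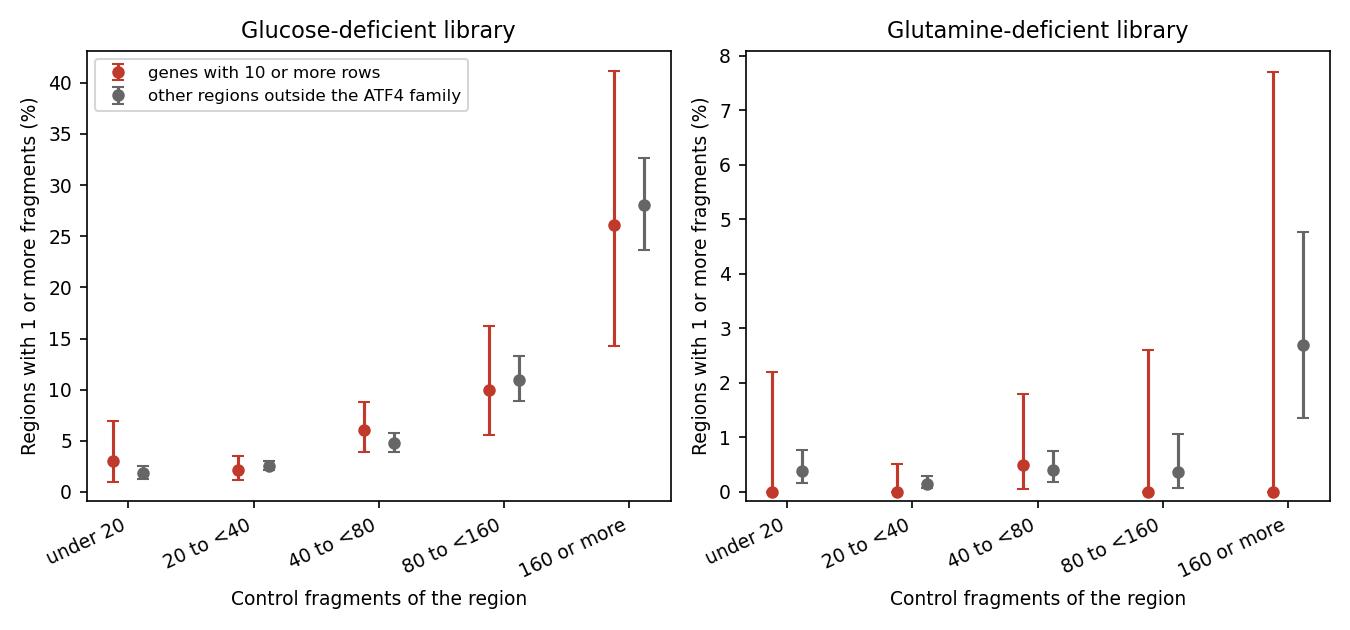
Share of regions (%) with 1 or more fragments in the glucose-deficient (left) and glutamine-deficient library (right; different vertical scale) by control fragments of the region, for the 112 genes (red) and all other listed regions outside ATF4 and its pseudogenes (grey), with exact 95% counting intervals. On the left both sets lie under 4% in the 2 shallowest classes and reach 26.1% and 28.0% in the deepest. On the right members kept fragments in 1 class only.

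In the glutamine-deficient library 2 of 1492 rows kept a fragment, 0.134% (interval 0.0162% to 0.483%), beside 0.352% of all listed rows that name a gene. One was a CNOT1 row of 12.2 RPM, 45.5 control fragments, with 1 fragment. The other was a row of IPO9, an importin, with 15.7 RPM, 59 control fragments and 1 fragment, among 11 rows of 6.48 to 23.4 RPM. Neither was the highest of its gene, and both rows held 0 in the glucose-deficient library, where 4.61% of all listed rows that name a gene held a fragment. Their genes were not among the 47 of 112 with a fragment there, so no gene kept one in both. With only 2 genes on one side, this lack of overlap says little about the members. The pooled rate was 0.0280 per 1000 control fragments (0.00339 to 0.101), where the other regions outside the mitochondrial genome kept 0.0881 (0.0671 to 0.114). These intervals overlapped. With the mitochondrial genome kept in, the other listed regions kept 0.207 (0.176 to 0.242) and the other regions of protein-coding genes 0.255 (0.213 to 0.303), and both of these intervals lay above that of the members. The difference between the sets was not tested, and the members' rate rests on 2 fragments.

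Side by side, the members held 90 fragments in glucose deficiency and 2 in glutamine deficiency, from libraries of similar total. Scaled to the library totals this was 43.9 times as many (interval 11.8 to 368), and 15.7 times (12.1 to 20.8) for the other regions outside the mitochondrial genome. The interval of the members contains that one. With the mitochondrial genome kept in, the ratio was 6.41 (5.42 to 7.63) for the other listed regions and 4.96 (4.11 to 6.03) for the other regions of protein-coding genes, and both intervals lay below that of the members. Both libraries are set against the same control, and each is 1 library, so the gap between them cannot be told apart from a gap between 2 preparations.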

How the data were processed

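RNA of 3 libraries, 1 per group, was sequenced with 150 nt paired reads after ribosomal RNA depletion, per the labels. Alignment used HISAT2 2.0.5 and build hg38, per the submitters' processing notes. Not given in the sources used here were the calling, selection and annotation of regions and the use of strand. The authors, per the file headers, deposited RPM values. The glutamine sample's label names the glucose column, so its column was assigned by title.

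Each value was a whole number of 0.5-fragment steps above an offset of 0.5 fragment, with a largest deviation of 0.00366 fragment below 1000 RPM. Fragments were recovered by taking off the offset and rounding to 0.5 fragment, after which whole values made up 63.3% in the control, 99.96% under glucose deficiency and 99.98% under glutamine deficiency. RPM values in the text are as deposited, and counting intervals use recovered fragments. Reads without molecular identifiers are not independent molecules, so the intervals and the floor of 3 fragments cover counting error only.

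Gene types and models came from GENCODE 29 for 111 of 112 genes by identifier. PRRC2B was typed by RefSeq and placed by symbol. Rows of different identifiers with the same values were 1 region where the genes overlap, or, for identifiers outside GENCODE 29, where they are adjacent. Rates per 1000 control fragments have Poisson intervals, shares Clopper-Pearson intervals and ratios conditional binomial intervals. No p-value was computed.

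The members, the 11 gene lists, the markers and the alternatives were chosen with earlier results of these data known. Named genes are UBR4 and PRKDC, the 10 with the most rows (with ties), the 5 widest and 5 narrowest ratios of highest to lowest row, the 5 highest summed control levels, up to 10 per deprived library with the most kept fragments, and up to 4 per list. STAG2, OGT, FHIT, FMC1-LUC7L2, BIRC6, MYCBP2, CHD4 and SRCAP were named after their values were seen. Some genes that the rule names are not reported here. Alternatives were other minimums of rows, pseudocounts and control filters, duplicates merged, shared rows left out, the offset taken off, and totals without ATF4 and its pseudogenes. The steps were tested on simulated data. Python 3.11.15, numpy 2.4.6, pandas 2.3.3, scipy 1.17.1 and matplotlib 3.10.9 were used.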

Additional observations from a re-analysis of the deposited data

How the results depend on the processing

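The number of genes was 197 with a minimum of 8 rows and 22 with 15. The median ratio of highest to lowest row was 4.85 and 6.201 with these minimums, 5.33 with identical rows counted once, 5.25 without shared rows, 4.27 for rows of at least 5 RPM and 5.42 with the offset taken off. Rows kept in glucose deficiency numbered 121 of 2212 and 19 of 449 with minimums of 8 and 15, beside 4.61% of all listed rows that name a gene. When 2 fragments were required they numbered 16 of 1492, beside 169 of 13642 such rows outside the ATF4 family. In glutamine deficiency they numbered 5 of 2212 and 1 of 449, beside 0.352%, and 0 of 1492, beside 14 of 13638. Rows at least 2-fold lower numbered 449 in each library with a minimum of 15, as the set has fewer rows. With a pseudocount of 5 RPM they numbered 1357 of 1492 in glucose deficiency and 1359 of 1492 in glutamine deficiency. The share over all listed rows is not given for that setting. With totals that leave out the ATF4 family but the offset left in, 4 rows were lower and 1291 higher in glucose deficiency, and 11 lower and 1198 higher in glutamine deficiency. On that scale the offset of 0.5 fragment alone exceeds most control values. No share over all listed rows is given on it, so these counts show nothing particular to the members. With the offset also taken off, an alternative chosen after the data were seen, the rows lower than the control are those at 0, so it adds nothing. The rates kept per 1000 control fragments moved by less than their counting intervals under every alternative run for them. No paired analysis was possible because each group has 1 library. Depth limits the kept rows: 55 of 71 rest on 1 fragment.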
